A study of Mus musculus with 9 samples.

Results

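Bulk RNA-seq was used to ask how the transcriptomes of pre-aged hematopoietic stem cells (paHSCs) differ with the amount of P-selectin on the cell surface. The comparison takes 6 of the 9 libraries of the series, 3 labelled Selp_high and 3 labelled Selp_low, and the other 3, from young HSCs, were not used in the results here. Per the study's methods, bone marrow came from female C57BL/6 mice, aged 14 to 16 months for the paHSCs, and no treatment or engineered allele is given for them. Lineage-negative cells positive for Sca1 and c-Kit, positive for CD150 and negative for CD48 were sorted as HSCs and then divided by surface P-selectin into the Selp_high and Selp_low fractions. The labels give bone marrow as the tissue of all 6 libraries and number them 1 to 3 in each fraction. The study calls the 3 libraries of a fraction biological replicates and independent samples. Whether libraries of the same number came from the same animals, and how many animals went into each, is not given in the sources used here. Of 56748 genes in the count table, 20370 passed the filter on low counts in these 6 libraries and were tested.

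P-selectin, the product of *Selp*, is an adhesion receptor that megakaryocytes and platelets store in alpha granules and move to the surface on activation, and endothelial cells also make it. In mouse bone marrow a share of HSCs carries megakaryocyte and platelet transcripts while keeping stem cell potential, and this share is known to grow with age. Platelet receptors, granule proteins, the cytoskeleton of proplatelets and the transcription factors that drive them are therefore described first, then the stem cell genes, and then the genes with lower levels in the Selp_high libraries.

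Total counts per library ranged from 27869540 to 35375310. Genes with 1 or more counts numbered 21755, 33816 and 25192 in Selp_high replicates 1, 2 and 3. In Selp_low replicates 1, 2 and 3 they numbered 34143, 33654 and 33730. Levels are given as CPM, the count as a share of the library scaled to a common total, after TMM scaling, a normalization that sets most genes to equal levels between libraries, and values in a sentence follow the order of replicates 1, 2 and 3, with Selp_high before the word against and Selp_low after it. The libraries differed in RNA of other blood cells before any comparison. Summed over a list of B lineage genes, the level in CPM was 587, 1000.1 and 494 in the Selp_high and 8619.8, 10984 and 357 in the Selp_low libraries. A neutrophil list summed to 7659.6, 2192 and 48368 in the Selp_high and 5998, 764 and 233020 in the Selp_low libraries. Immunoglobulin (IG) genes of all biotypes summed to 3278, 30521 and 12531 in the Selp_high and 26267, 705650 and 1353 in the Selp_low libraries. Selp_low replicates 1 and 2 thus held the most B lineage RNA, Selp_low replicate 2 the most IG RNA and Selp_low replicate 3 the most neutrophil RNA. IG genes took 41.0% of all counts in Selp_low replicate 2 and 0.115% to 3.90% in the other 5 libraries. In these bulk libraries, fewer cells of a type and less RNA per cell cannot be told apart. The plot of summed markers shows these lists library by library.

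**Figure D1:**
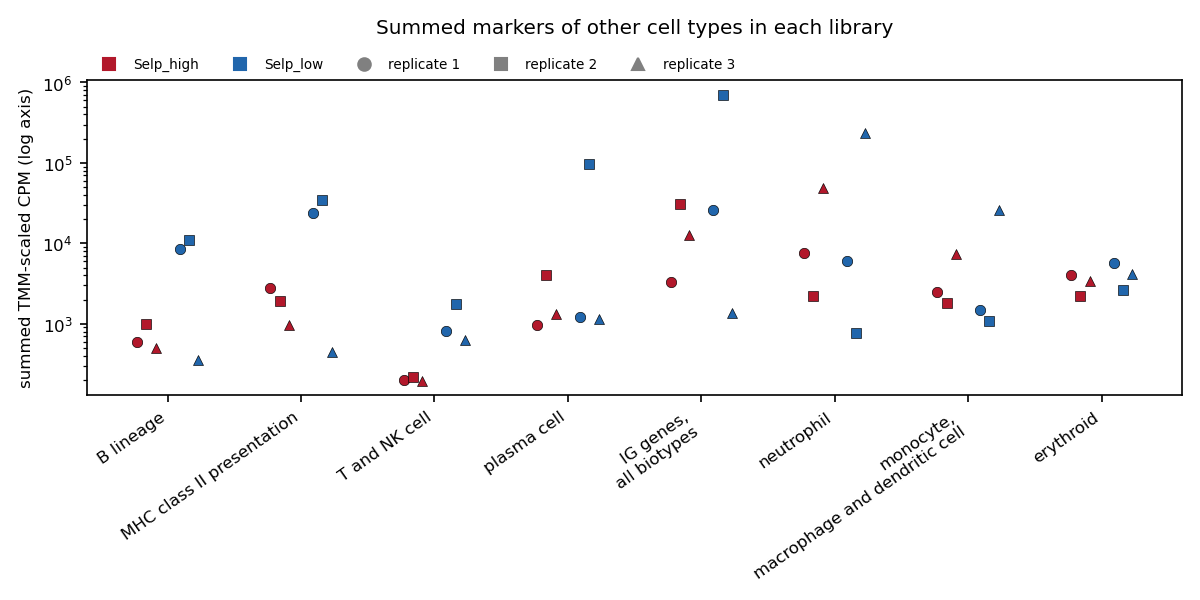
Summed TMM-scaled CPM (log axis) of marker lists of other cell types and of IG genes in each library, red for Selp_high and blue for Selp_low, with the marker shape giving the replicate number. Selp_low replicates 1 and 2 lie highest for the B lineage and MHC class II lists, Selp_low replicate 2 for IG genes and Selp_low replicate 3 for the neutrophil list.

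Genes were called differentially expressed (DEGs) where the adjusted p did not exceed 0.05 and the levels differed by 1 or more on the log2 scale in either direction; positive values mean a higher level in Selp_high. By edgeR's quasi-likelihood test with Benjamini-Hochberg adjustment, 0 of 20370 genes were DEGs, and the smallest adjusted p was 0.338. At an unadjusted p under 0.05 there were 1401 genes with a higher and 1154 with a lower level in Selp_high, or 6.88% and 5.67% of the genes tested. With the replicate number as a block, which compares libraries of the same number, edgeR called 9 DEGs: *Myl9* was higher (0.00491% of genes), and 7 IG genes and the long noncoding RNA *2410012E07Rik* were lower (0.0393%). DESeq2, the tool the study used, called 608 DEGs on the same counts, 198 higher and 410 lower, and with the block 2180, 996 higher and 1184 lower. Among the genes tested by edgeR these block calls numbered 995 higher (4.88%) and 1048 lower (5.14%). Of the 198 higher DESeq2 DEGs, 190 were protein-coding and 0 were IG or T cell receptor (TR) genes. Among the 410 lower ones, 201 were protein-coding, 87 were lncRNA genes, 41 were IG genes and 7 were TR genes.

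The DESeq2 counts moved with single libraries. Without Selp_low replicate 2 DESeq2 called 99 DEGs, without Selp_low replicate 3 it called 1268, and without Selp_high replicate 2 it called 2485, of which 2168 were lower. Leaving out any of the other 3 libraries gave 412 to 506. The fit without Selp_high replicate 2 kept Selp_high replicates 1 and 3, which had the fewest genes detected (21755 and 25192). The part of this in the lower calls was not tested. By edgeR, leaving out Selp_low replicate 3 gave 50 DEGs, of which 49 were lower, and leaving out any other library gave 0. A group difference that does not rest on a model is the count of genes whose 3 Selp_high libraries all lay above, or all below, the 3 Selp_low libraries. There were 2076 such genes above (10.2% of those tested) and 2210 below (10.8%). The TMM factor was 0.583 in Selp_low replicate 2, with the most IG RNA, and 0.852 in Selp_low replicate 3, with the most neutrophil RNA. It was 1.14 to 1.28 in the other libraries, Selp_low replicate 1 among them. With CPM scaled by library totals instead, there were 3707 above (18.2%) and 555 below (2.72%). That scaling raised the median over all tested genes from -0.11 to 0.37 on the log2 scale, a shift of 0.48, so list medians are also read against the median of all genes. An exact permutation test of 3 against 3 libraries cannot go below 0.1, 2-sided, and no such p is given for single genes.

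**Figure D2:**
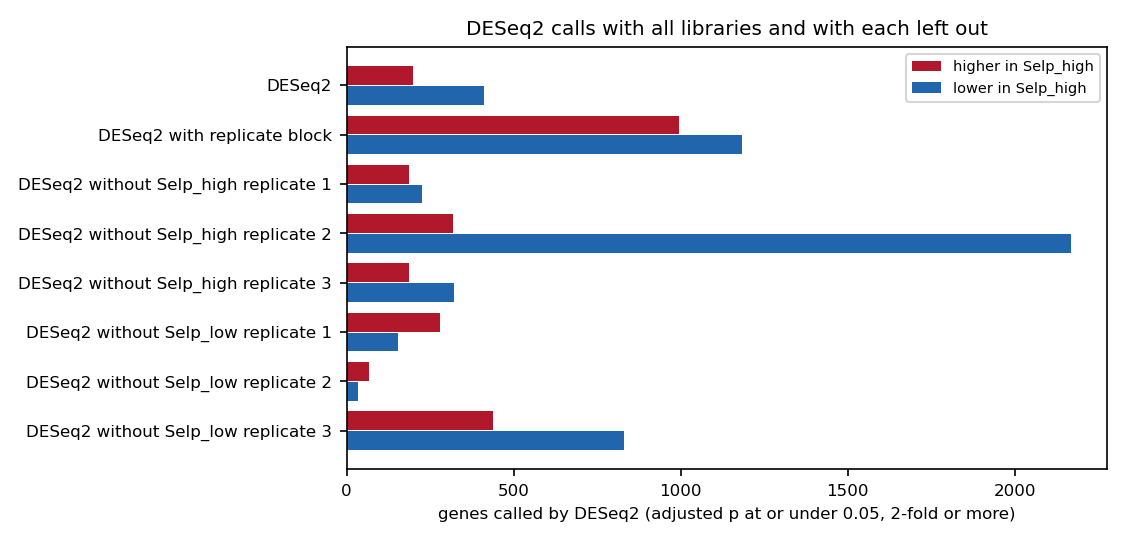
Number of DEGs called by DESeq2 (x axis) with all 6 libraries, with the replicate block and with each library left out, red for higher and blue for lower in Selp_high. The calls run from 99 without Selp_low replicate 2 to 2485 without Selp_high replicate 2.

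*Selp* (gene ENSMUSG00000026580; mm39, chromosome 1, bases 163942833 to 163977595, plus strand) checked the labels. Its level was 601, 247 and 245 CPM in the Selp_high and 102, 27.5 and 86.1 CPM in the Selp_low libraries. Every Selp_high library lay above every Selp_low library, and the within-pair log2 ratios were 2.55, 3.15 and 1.50. The group means of 365 ± 205 and 71.9 ± 39.2 CPM (SD, n = 3) differed by a factor of 5.07. The sorting used the protein, so this difference describes the sort and is not a finding.

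The other genes of the sort differed in direction. *Kit*, the stem cell factor receptor used as c-Kit, was at 203, 360.1 and 394 CPM in Selp_high and 113, 97.0 and 165 CPM in Selp_low, with no overlap. *Slamf1*, which encodes CD150, was at 183, 148 and 72.7 CPM against 62.1, 58.7 and 37.8 CPM, also with Selp_high above in every library. *Ly6a*, which encodes Sca1, was at 345, 179 and 161 CPM against 594, 824 and 64.2 CPM. Its groups overlapped, being highest in Selp_low replicates 1 and 2 and lowest in Selp_low replicate 3. *Cd48*, which encodes the protein that the sort excluded, was at 10.7, 36.0 and 14.7 CPM in Selp_high and 163, 289.9 and 21.0 CPM in Selp_low. Its transcript was thus most abundant in Selp_low replicates 1 and 2, the libraries with the most B lineage RNA. Of the markers of cells that lineage depletion removes, *Cd3e*, a T cell receptor chain, was at 0.596, 4.20 and 2.76 CPM against 18.0, 84.4 and 0.450 CPM. *Ly6g* was at 10.4, 1.77 and 67.9 CPM against 2.76, 0.371 and 169 CPM.

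All 25 tested platelet receptor and adhesion genes had a positive log2 fold change, with a median of 1.91, against 9120 of 20370 genes overall and a median of -0.11. In 14 of the 25 (56.0%, against 10.2% of all genes tested) the libraries did not overlap, all with Selp_high above. DESeq2 called 8 of the 25 higher (32.0%, against 0.967% of all genes tested) and 0 lower. Without Selp_high replicate 2 the median was 1.34, with 23 positive and 2 negative. Within pairs the medians were 1.73, 2.56 and 1.18. The smallest of them was in pair 3 and the largest in pair 2.

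*Itga2b*, the integrin chain of the fibrinogen receptor and an early megakaryocyte marker, was at 407, 1692 and 1136 CPM in Selp_high and 44.6, 237 and 379 CPM in Selp_low. Its lowest Selp_high library, replicate 1, exceeded the highest Selp_low library, replicate 3, by little, while every pair differed by more than 1 on the log2 scale (3.17, 2.83 and 1.58). *Gp1ba*, part of the receptor for von Willebrand factor, was at 43.6, 274 and 58.5 CPM against 5.13, 16.4 and 15.0 CPM, a mean 10.3-fold higher. *Gp6*, the platelet collagen receptor, was at 17.2, 148 and 2.84 CPM in Selp_high and 0.430, 2.59 and 0.588 CPM in Selp_low. Here the Selp_high libraries themselves spanned a factor of 52.1, and replicate 3 was just above the highest Selp_low library. *Mpig6b*, an inhibitory receptor of megakaryocytes and platelets, was at 12.3, 97.5 and 7.16 CPM against 0.246, 1.85 and 1.38 CPM. *Clec1b*, the podoplanin receptor CLEC-2, was at 46.9, 427 and 37.7 CPM against 5.49, 11.9 and 13.5 CPM. In all 5 receptors the groups did not overlap. Replicate 2 was the highest Selp_high library for each of these 5 receptors. The edgeR log2 fold change was 5.58 (SE 1.58) for *Gp6*, 4.05 (SE 1.06) for *Clec1b* and 2.29 (SE 0.84) for *Itga2b*, with adjusted p of 0.338, 0.338 and 0.359 by edgeR. *Gp6* and *Mpig6b* were DEGs by DESeq2 (adjusted p = 0.00035 and 0.000158), with adjusted p of 4.48e-11 to 0.882 and 8.67e-11 to 0.882 over the alternatives run.

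Since these genes were higher together, their promoters are shown for the bases before the transcription start, from RefSeq in build GRCm38.p6, with letters of a searched motif in capitals. The motifs were the GATA site (AGATAA), an ETS site (GGAAGT) and the SRF CArG box, on either strand, the sites of factor families known to act in megakaryocytes. *Gp6* (chr7:4397745-4397994, minus strand) and *Mpig6b* (chr17:35066185-35066434, minus strand) are shown for their GATA letters, *Ppbp* (chr5:90768268-90768517, plus strand) and *Myl9* (chr2:156775214-156775463, plus strand) for a CArG box, and *Selp* (chr1:164115014-164115263, plus strand) as the gene of the sort.
Selp: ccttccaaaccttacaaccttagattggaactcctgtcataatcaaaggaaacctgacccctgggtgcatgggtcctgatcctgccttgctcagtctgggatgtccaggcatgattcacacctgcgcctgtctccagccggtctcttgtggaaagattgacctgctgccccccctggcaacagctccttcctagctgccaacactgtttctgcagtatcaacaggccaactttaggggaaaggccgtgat
Gp6: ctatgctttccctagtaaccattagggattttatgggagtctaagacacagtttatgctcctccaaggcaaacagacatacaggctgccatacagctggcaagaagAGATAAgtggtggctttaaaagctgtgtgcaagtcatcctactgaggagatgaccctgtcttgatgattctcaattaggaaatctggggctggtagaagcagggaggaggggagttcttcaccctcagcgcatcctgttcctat
Mpig6b: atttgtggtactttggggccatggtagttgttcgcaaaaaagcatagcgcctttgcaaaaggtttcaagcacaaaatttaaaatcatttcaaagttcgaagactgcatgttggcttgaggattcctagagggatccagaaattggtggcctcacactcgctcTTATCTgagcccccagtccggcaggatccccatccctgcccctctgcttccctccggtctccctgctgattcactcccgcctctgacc
Ppbp: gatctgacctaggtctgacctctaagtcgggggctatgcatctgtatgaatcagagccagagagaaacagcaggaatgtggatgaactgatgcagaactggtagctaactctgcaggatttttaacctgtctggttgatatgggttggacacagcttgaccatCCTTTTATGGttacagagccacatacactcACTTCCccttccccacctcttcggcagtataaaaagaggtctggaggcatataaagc
Myl9: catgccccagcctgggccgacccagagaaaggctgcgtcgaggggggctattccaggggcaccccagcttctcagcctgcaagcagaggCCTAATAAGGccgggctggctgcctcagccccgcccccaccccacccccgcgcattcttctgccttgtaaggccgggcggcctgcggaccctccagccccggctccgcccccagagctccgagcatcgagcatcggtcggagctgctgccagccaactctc
The GATA letters begin 144 bases before the start in *Gp6* and 88 in *Mpig6b*, and the CArG box 87 in *Ppbp*, which also has ETS letters at 57, and 161 in *Myl9*. No searched motif lay in the *Selp* window. Of 32851 promoters in the table, 9.99% held GATA letters, 19.7% ETS letters and 1.47% a CArG box. Promoters were matched for 19 of the 25 tested platelet receptor genes. Of these, 6 held GATA letters (31.6%), 6 ETS letters (31.6%) and 0 a CArG box. Of 21 matched platelet granule genes, 1 held GATA letters (4.76%), 6 ETS letters (28.6%) and 1 a CArG box (4.76%). Among 23 matched megakaryocyte cytoskeleton genes, 0 held GATA letters, 2 ETS letters (8.70%) and 2 a CArG box (8.70%). The shares thus lay on either side of those of all promoters. These are matches of letters only, and binding was not measured here.

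Platelet granule and coagulation genes went the same way, with 25 of 27 tested genes positive and a median of 1.34. In 10 (37.0%) the libraries did not overlap with Selp_high above and in 1 (3.70%) with Selp_high below, against 10.2% and 10.8% of all genes. DESeq2 called 6 higher (22.2%) and 0 lower, against 0.967% and 1.45% of all genes. *Clu*, which encodes the chaperone clusterin and is a known transcript of aged HSCs, was at 393, 609 and 359.6 CPM in Selp_high and 49.8, 34.3 and 97.8 CPM in Selp_low. *Ppbp*, a platelet chemokine, was at 282, 1114 and 78.1 CPM against 4.27, 41.3 and 23.5 CPM. *Slc6a4*, the serotonin transporter of platelets, was at 21.7, 196 and 4.62 CPM against 0.276, 2.10 and 1.31 CPM. The Selp_high libraries spanned a factor of 1.69 for *Clu*, 14.3 for *Ppbp* and 42.4 for *Slc6a4*. *Pdgfa*, a growth factor chain of alpha granules, was at 3.89, 13.9 and 0.982 CPM against 0.307, 0.741 and 0.415 CPM, again with replicate 2 highest in Selp_high. *Pf4*, platelet factor 4, was at 72.2, 2032 and 1901 CPM in Selp_high and 34.3, 1072 and 1328 CPM in Selp_low. Its groups overlapped, because replicate 1 was low in both fractions, and the edgeR log2 fold change was 0.72 (SE 1.38). *Vwf*, von Willebrand factor, was at 139, 448 and 299 CPM against 34.5, 71.5 and 144 CPM and overlapped by replicate 1 of Selp_high and replicate 3 of Selp_low, with a log2 fold change of 1.83 (SE 0.62) by edgeR.

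Of 25 tested megakaryocyte cytoskeleton genes, 22 were positive, with a median of 0.97. In 11 (44.0%, against 10.2% of all genes) the libraries did not overlap, all with Selp_high above. DESeq2 called 5 higher (20.0%, against 0.967% of all genes) and 0 lower. Without Selp_high replicate 2 the median was 0.38, with 19 positive and 6 negative. *Tubb1*, the beta tubulin of proplatelets, was at 191, 997 and 13.6 CPM in Selp_high and 1.41, 9.94 and 1.49 CPM in Selp_low. Its Selp_high libraries spanned a factor of 73.2, and its log2 fold change of 6.56 (SE 1.73) by edgeR ranged from 4.61 to 8.14 with a library left out. *Myl9*, the regulatory light chain of myosin (ENSMUSG00000067818, chromosome 2 from 156617340 to 156623578 on the plus strand of mm39), was at 149, 458 and 22.8 CPM against 2.39, 12.4 and 0.277 CPM. In both fractions replicate 2 was highest and replicate 3 lowest, every Selp_high library was above every Selp_low library, and the within-pair log2 ratios were 5.69, 5.16 and 4.91. It was the only gene that passed as higher by edgeR with the replicate block (log2 fold change 5.40 (SE 1.60) without the block, adjusted p = 0.0212 by edgeR with it), and over the alternatives its adjusted p was 6.28e-54 to 0.882. *Tgfb1i1*, a focal adhesion adaptor, was at 7.82, 20.6 and 9.18 CPM against 1.53, 1.48 and 2.97 CPM. *Parvb*, beta-parvin, was at 4.05, 43.7 and 4.70 CPM against 1.14, 3.46 and 2.14 CPM. *Gas2l1*, which links actin to microtubules and is not on the list but among the 10 largest non-overlapping differences, was at 63.1, 263 and 28.4 CPM against 3.50, 6.67 and 7.40 CPM. *Prokr1*, a prokineticin receptor, met the same rule through 1 library, at 2.86, 73.0 and 1.43 CPM against 1.10, 0.926 and 1.31 CPM, and its log2 fold change of 4.52 (SE 1.51) by edgeR ranged from 0.94 to 5.07 with a library left out, lowest without Selp_high replicate 2.

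Among 15 eicosanoid enzymes, 8 were positive and 7 negative, with a median of 0.09 that became 1.23 without Selp_low replicate 3, the neutrophil-rich library. In 3 of them (20.0%, against 10.2% of all genes) the groups did not overlap, with Selp_high above. *Alox12*, platelet 12-lipoxygenase, was at 198, 805 and 48.5 CPM in Selp_high and 4.05, 11.9 and 4.84 CPM in Selp_low. *Tbxas1*, thromboxane synthase, was at 445, 352 and 324 CPM against 147, 68.9 and 149 CPM. *Pla2g4a*, the phospholipase that frees arachidonic acid, was at 243, 137 and 153 CPM against 82.7, 39.5 and 88.7 CPM. *Alox12* and *Tbxas1* were higher by DESeq2 (adjusted p = 4.15e-07 and 0.0448; 2.49e-21 to 0.882 and 1.54e-05 to 0.882 over the alternatives). *Alox15* was at 9.06, 115 and 102 CPM against 1.41, 22.6 and 3.36 CPM and overlapped.

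The megakaryocyte and erythroid transcription factors differed less, with 18 of 21 positive and a median of 0.39, which was 0.79 without Selp_low replicate 3. *Gata2*, which HSCs and early megakaryocyte progenitors use, was at 377, 418 and 379 CPM in Selp_high and 138, 177 and 214 CPM in Selp_low. *Tal1*, a partner of GATA factors, was at 32.6, 76.1 and 53.1 CPM against 14.5, 25.6 and 27.7 CPM. *Meis1*, a homeobox factor, was at 314, 285 and 293 CPM against 190.1, 97.1 and 189 CPM. In all 3, which are also on the list of self-renewal factors below, Selp_high lay above without overlap. For *Gata2* and *Meis1* the 3 Selp_high libraries lay within a factor of 1.11 and 1.10. *Klf1*, an erythroid factor, went the other way, at 21.3, 18.9 and 35.3 CPM in Selp_high and 59.9, 89.7 and 109 CPM in Selp_low, and was lower by DESeq2 (edgeR log2 fold change -1.78 (SE 0.36); DESeq2 adjusted p = 0.0183; 9.32e-07 to 0.882 over the alternatives). The erythroid list had 9 positive and 16 negative genes of 25 and a median of -0.50, which turned to 0.21 without Selp_low replicate 1. With the replicate block 13 were positive and 12 negative, with a median of 0.041, and the within-pair medians were -1.41, 0.33 and -0.080. *Car1*, carbonic anhydrase 1, was at 31.2, 161 and 184 CPM against 221, 1095 and 855 CPM. *Ermap*, an erythroid membrane protein, was at 6.51, 9.21 and 19.8 CPM against 25.1, 41.1 and 75.0 CPM. Both were lower by DESeq2 and without overlap, although replicate 1 of Selp_low was near the highest Selp_high library.

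**Figure D3:**
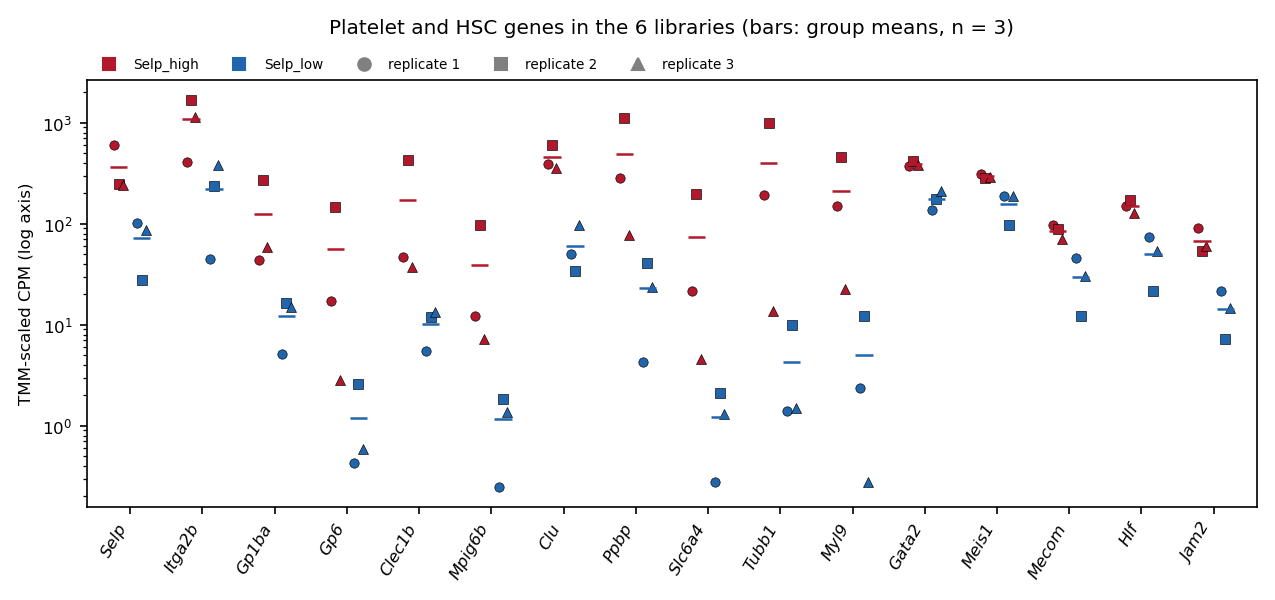
TMM-scaled CPM (log axis) of platelet genes (left) and stem cell genes (right) in each library, red for Selp_high and blue for Selp_low, with bars at the group means and marker shapes for replicates 1 to 3. *Gp6*, *Slc6a4* and *Tubb1* span the widest range among the Selp_high libraries, while *Gata2* and *Meis1* lie within a factor of 1.11.

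Stem cell genes had mostly positive fold changes. Of 21 HSC surface marker genes, 14 were positive and 7 negative, with a median of 1.34. The list includes *Cd48*, whose protein the sort excluded, and *Flt3* and *Cd34*, whose proteins the study's long-term HSC gate excludes. Its counts thus mix markers by presence and by absence. In 11 (52.4%, against 10.2% of all genes) the libraries did not overlap, all with Selp_high above. *Robo4*, an adhesion receptor of HSCs, was at 43.3, 40.3 and 23.0 CPM against 10.9, 3.58 and 5.67 CPM. *Fgd5*, a marker of long-term HSCs, was at 18.5, 36.9 and 21.9 CPM against 8.04, 4.76 and 7.37 CPM. Replicate 1 was the highest Selp_high library for *Robo4* and replicate 2 for *Fgd5*. *Itga6*, an integrin chain, was at 82.0, 479 and 94.4 CPM against 44.2, 37.9 and 57.7 CPM. DESeq2 called 4 of the list higher (19.0%), among them *Robo4* and *Fgd5*, and 1 lower (4.76%), *Cd48*, against 0.967% and 1.45% of all genes. *Neo1*, neogenin, was at 8.10, 19.0 and 16.8 CPM against 6.81, 3.77 and 5.19 CPM without overlap. The negative members included *Cd48* and *Ly6a*, given above, and *Flt3*, a receptor of multipotent and lymphoid progenitors, at 3.96, 7.26 and 6.23 CPM against 39.7, 5.06 and 7.09 CPM, where 1 library, Selp_low replicate 1, stood above the rest and the log2 fold change ranged from -2.02 to -0.06 with a library left out. *Cd34* was at 79.2, 58.1 and 72.2 CPM against 158, 20.5 and 43.3 CPM and overlapped, with Selp_low replicate 1 highest and a log2 fold change that ranged from -0.53 to 1.16 with a library left out.

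Transcription factors of self-renewal followed, with 21 of 25 positive and a median of 0.82. In 11 (44.0%, against 10.2% of all genes) the libraries did not overlap, all with Selp_high above. *Hlf*, a factor that marks long-term HSCs, was at 150, 170.4 and 129 CPM in Selp_high and 74.2, 21.4 and 53.6 CPM in Selp_low. *Mecom* was at 97.8, 87.9 and 70.9 CPM against 46.1, 12.2 and 30.7 CPM. *Mllt3* was at 244, 152 and 100.5 CPM against 88.2, 36.1 and 48.3 CPM. In all 3 factors the groups did not overlap and Selp_low replicate 2 was the lowest library. *Mycn*, a Myc family factor, was the 1 member that DESeq2 called higher (4.0%, against 0.967% of all genes). It was at 490, 239 and 163 CPM against 91.4, 50.4 and 31.4 CPM, with an edgeR log2 fold change of 2.36 (SE 0.56). Its adjusted p was 0.0149 by DESeq2 and 4.52e-17 to 0.882 over the alternatives. In every pair the median of the platelet receptors (1.73, 2.56 and 1.18) exceeded that of the self-renewal factors (0.59, 1.39 and 0.63). The lists also differed in spread: the Selp_high libraries spanned a median factor of 5.88 over the platelet receptor genes and 1.89 over the self-renewal factors, against 1.92 over all genes tested, with 0.5 CPM added to each value.

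Genes known to be higher in aged HSCs mostly had positive fold changes within this single age group, with 40 of 45 positive and a median of 1.48. In 23 (51.1%, against 10.2% of all genes) the libraries did not overlap and all 23 had Selp_high above. DESeq2 called 8 higher (17.8%) and 0 lower, against 0.967% and 1.45% of all genes. With the block it called 29 higher and 1 lower, against 4.88% and 5.14% of all genes. Some are platelet genes as well, such as *Clu* and *Vwf*, and the list was written with earlier results of these libraries known, so the count is no independent support. *Fhl1*, a LIM domain protein, was at 233, 375 and 116 CPM in Selp_high and 47.8, 24.3 and 41.8 CPM in Selp_low. *Jam2*, a junctional adhesion molecule, was at 90.5, 53.4 and 60.6 CPM against 21.7, 7.16 and 14.6 CPM. *Ramp2*, a co-receptor for adrenomedullin, was at 62.2, 53.9 and 21.5 CPM against 18.1, 4.20 and 5.98 CPM. In all 3 genes the groups did not overlap and Selp_low replicate 2 was the lowest library. *Nupr1*, a stress-response factor, was at 537, 122 and 133 CPM against 174, 37.2 and 65.8 CPM, where replicate 1 was the highest library in both fractions, so that the groups overlapped although each pair differed the same way (1.62, 1.70 and 1.01). *Timp3*, an inhibitor of matrix proteases, was at 22.5, 71.5 and 86.4 CPM against 13.3, 26.8 and 38.1 CPM, where replicate 1 was the lowest library in both fractions and the pairs again differed one way (0.74, 1.40 and 1.17).

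**Figure D4:**
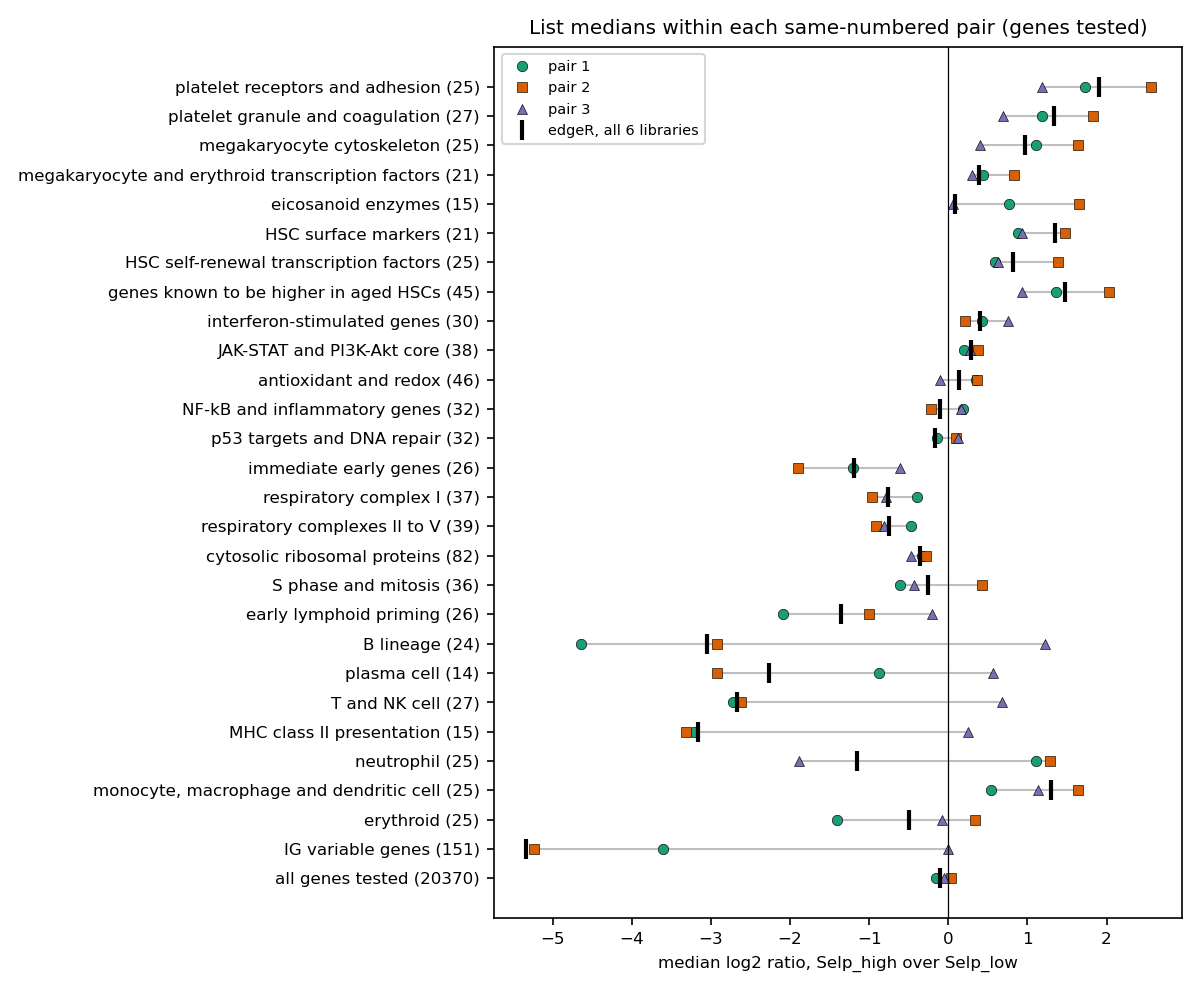
Median log2 ratio of Selp_high over Selp_low for each gene list within pair 1 (circle), pair 2 (square) and pair 3 (triangle), with the edgeR median of all 6 libraries as a black bar and the number of genes tested in parentheses. Platelet and stem cell lists lie above 0 and immediate early and respiratory chain lists below 0 in all 3 pairs, whereas the B lineage, MHC class II and T and NK cell lists are below 0 in pairs 1 and 2 and above 0 in pair 3.

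The cell cycle lists did not separate the fractions. Of 36 S phase and mitosis genes, 28 were negative, with a median of -0.26, 0 were without overlap, and the median ran from -0.95 without Selp_high replicate 3 to 0.70 without Selp_low replicate 3, the libraries with the most neutrophil RNA. With library totals as size factors 24 were positive, with a median of 0.23. Against the median of all genes the list was at -0.15 under TMM scaling and -0.15 under library totals. Without Selp_high replicate 1 the list median was 0.10, so the direction turned with single libraries. *Ube2c*, a mitotic ubiquitin conjugase, was at 13.7, 77.8 and 152 CPM in Selp_high and 46.1, 122 and 344 CPM in Selp_low, highest in replicate 3 of each. Of 12 CDK inhibitors and D cyclins, 5 were positive and 7 negative. Their median of -0.26 turned to 0.22 without Selp_low replicate 3, to 0.08 without Selp_high replicate 1 and to 0.20 with library totals. Against the median of all genes it was -0.15 under TMM scaling and -0.17 under library totals. *Cdkn1c*, the CDK inhibitor p57 known for HSC quiescence, was at 74.2, 25.9 and 21.8 CPM against 15.9, 4.45 and 8.58 CPM without overlap. *Cdkn1b*, p27, was at 3.96, 7.39 and 7.19 CPM against 8.29, 13.3 and 11.6 CPM, without overlap and in the opposite direction.

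Immediate early genes, which cells transcribe within minutes of a stimulus such as tissue dissociation or growth factor, all pointed to lower levels in Selp_high. All 26 tested members were negative, with a median of -1.19, against 11250 of 20370 genes overall. In 8 of them the libraries did not overlap, all with Selp_high below (10.8% of all genes), and DESeq2 called 3 lower (1.45% of all genes) and 0 higher; with the block it called 14 lower. Within pairs the medians were -1.20, -1.90 and -0.61. With library totals as size factors the median was -0.89, which is 1.26 below the median of all genes. Under that scaling 3 of the 26 members did not overlap, all with Selp_high below, against 2.72% of all genes.

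*Cd69*, an early activation antigen, was at 46.4, 34.5 and 47.1 CPM in Selp_high and 606, 296 and 203 CPM in Selp_low. The Selp_high libraries lay within a factor of 1.37, the Selp_low libraries within 2.99, and the log2 fold change was -3.11 (SE 0.46) by edgeR. It was lower by DESeq2 (adjusted p = 1.92e-05), and over the alternatives its adjusted p was 6.54e-14 to 0.882. *Cd69* is also a marker of activated lymphocytes. The T and NK cell list summed to 198, 217 and 196 in the Selp_high and 818, 1783 and 621 in the Selp_low libraries. The sum was higher in every Selp_low library, as *Cd69* was. In pair 3, however, the list median was 0.67, so most members were not higher in Selp_low replicate 3. The part of this RNA was not tested. *Rgs2*, a regulator of G protein signaling, was at 62.5, 61.0 and 74.0 CPM against 345, 266 and 180.2 CPM. *Egr3*, a zinc finger factor, was at 0.906, 1.26 and 3.34 CPM against 9.24, 12.4 and 5.98 CPM. *Fosb*, a subunit of AP-1, was at 11.2, 11.8 and 12.2 CPM against 63.3, 52.4 and 13.5 CPM. For *Fosb* the lowest Selp_low library, replicate 3, was just above the Selp_high range. *Nfkbia*, the NF-kB inhibitor and itself an early target, was at 332, 198 and 443 CPM in Selp_high and 668, 915 and 1010.3 CPM in Selp_low. *Btg2*, a p53 target also induced early, was at 264, 79.2 and 176 CPM against 666, 359 and 449 CPM, both without overlap.

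The wider inflammatory and stress lists were divided in direction. Of 32 NF-kB and inflammatory genes, 15 were positive and 17 negative. Their median of -0.10 was 0.17 without Selp_low replicate 3 and 0.36 with library totals. Against the median of all genes it was 0.007 under TMM scaling and -0.010 under library totals. *Rel* was at 5.01, 5.03 and 15.8 CPM in Selp_high and 42.0, 33.2 and 21.6 CPM in Selp_low. *Ccl6*, a chemokine, was at 51.6, 73.9 and 91.0 CPM against 10.5, 40.2 and 30.0 CPM; each was without overlap, in opposite directions. Of 32 p53 targets and DNA repair genes, 15 were positive, with a median of -0.16. It ran from -0.33 without Selp_low replicate 1 to 0.31 without Selp_low replicate 3 and was 0.36 with library totals. Against the median of all genes it was -0.06 under TMM scaling and -0.01 under library totals. *Gadd45b*, a stress sensor, was at 28.2, 9.71 and 40.5 CPM against 54.4, 57.4 and 165 CPM. *Sesn2*, sestrin 2, was at 24.0, 19.2 and 22.8 CPM against 9.24, 9.14 and 12.4 CPM. Interferon-stimulated genes had 22 of 30 positive and a median of 0.40, which was 0.09 without Selp_high replicate 1. *Ifit1* was at 65.1, 66.5 and 29.2 CPM against 27.2, 17.8 and 6.36 CPM, without overlap. *Ifi27l2a* was at 3.72, 8.43 and 4.32 CPM against 54.2, 106 and 1.80 CPM, where Selp_low replicates 1 and 2 stood apart.

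Nuclear genes of the respiratory chain had slightly lower levels in Selp_high, with little spread among its libraries. Of 37 complex I genes, 36 were negative, with a median of -0.76, and 25 (67.6%) did not overlap, all with Selp_high below. Of 39 genes of complexes II to V, 37 were negative, with a median of -0.75, and 28 (71.8%) did not overlap, in the same direction. Over all genes tested 10.8% lay below. The within-pair medians were -0.39, -0.96 and -0.78 for complex I and -0.47, -0.92 and -0.81 for complexes II to V. DESeq2 called 1 complex I gene and 0 of the others at a fold of at least 2. The size of this difference depended on the scaling. With library totals as size factors the medians were -0.24 and -0.23, which is 0.62 and 0.60 below the median of all genes. Under that scaling 4 and 6 genes did not overlap with Selp_high below, and 1 and 2 with Selp_high above. The shares of all genes tested were then 2.72% below and 18.2% above. Leaving out a library moved the complex I median between -0.82 and -0.62.

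*Ndufa1*, a small membrane subunit of complex I (ENSMUSG00000016427, chromosome X from 36451241 to 36454816 on the minus strand of mm39), was at 72.1, 69.0 and 78.8 CPM in Selp_high and 157, 349.8 and 229 CPM in Selp_low, a mean 3.35-fold higher in Selp_low (DESeq2 adjusted p = 0.0175; 4.67e-05 to 0.882 over the alternatives). Its Selp_high libraries lay within a factor of 1.14. *Ndufs6* was at 38.9, 40.3 and 47.2 CPM against 76.1, 99.8 and 103 CPM. *Ndufa2* was at 79.1, 77.8 and 77.7 CPM against 136, 203 and 147 CPM. The 3 Selp_high values of *Ndufa2* lay within a factor of 1.02. Of the cytochrome bc1 complex, *Uqcr11* was at 108, 89.5 and 90.1 CPM against 167, 257 and 188 CPM. *Uqcrq* was at 59.5, 57.7 and 58.7 CPM against 104, 148 and 122 CPM. *Cox6c*, of cytochrome oxidase, was at 114, 127 and 128 CPM against 182, 249 and 279 CPM. The groups were separate for each of these 6 genes, with Selp_low replicate 1 the nearest to Selp_high. Of 12 genes encoded by mitochondrial DNA, 8 were negative, with a median of -0.21, and 0 were without overlap. With library totals as size factors 9 were positive, with a median of 0.23. Against the median of all genes the list was at -0.11 under TMM scaling and -0.14 under library totals. Without Selp_high replicate 3 or Selp_low replicate 1 the list median was 0.014, so the list gave no stable direction.

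**Figure D5:**
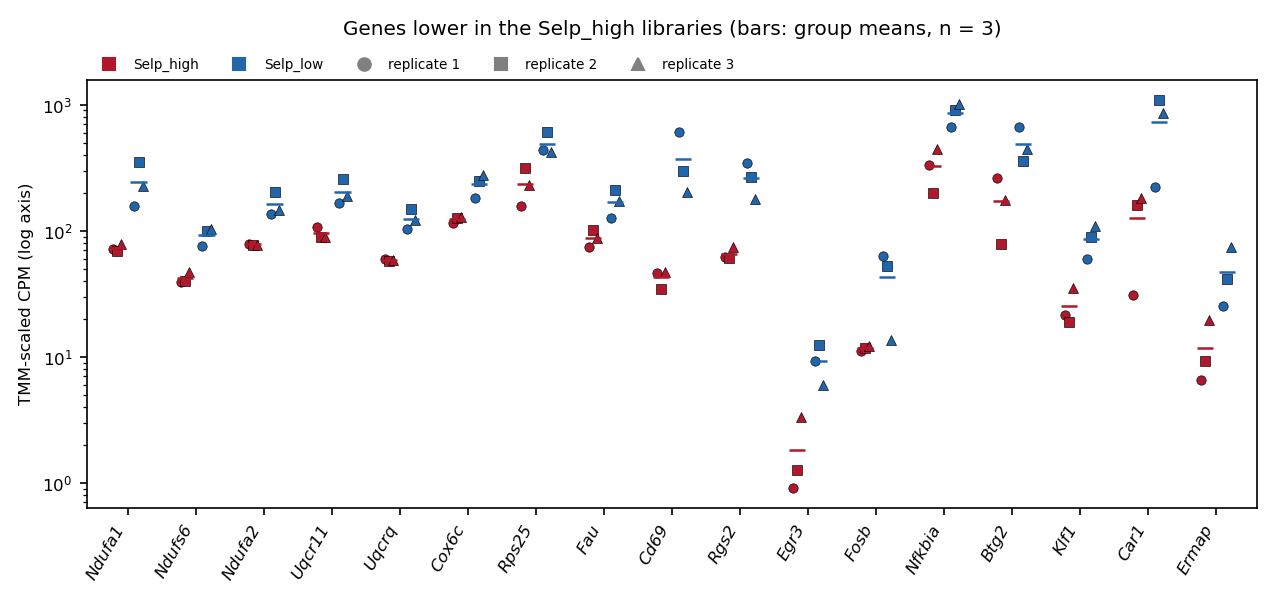
TMM-scaled CPM (log axis) of respiratory chain, ribosomal, immediate early and erythroid genes in each library, red for Selp_high and blue for Selp_low, with bars at the group means and marker shapes for replicates 1 to 3. The 3 Selp_high libraries lie below the 3 Selp_low libraries for each gene drawn, with *Fosb* separated least.

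Cytosolic ribosomal protein genes were lower by a small amount under TMM scaling, with 72 of 82 negative and a median of -0.35, but under library totals 61 were positive, with a median of 0.16, so their direction flips with the scaling; against the median of all genes they were 0.25 and 0.21 lower. *Rps25* was at 157, 317 and 229.6 CPM in Selp_high and 439, 613 and 425 CPM in Selp_low. *Fau* was at 74.7, 101 and 87.9 CPM against 127, 211 and 171 CPM. Ribosomal protein genes have many processed pseudogenes that could share their reads. Antioxidant and redox genes were also divided, 25 positive and 21 negative of 46. Their median of 0.14 was 0.57 with library totals and -0.094 without Selp_high replicate 1. Against the median of all genes it was 0.24 under TMM scaling and 0.20 under library totals. *Srxn1*, sulfiredoxin, was at 117, 154 and 37.7 CPM against 33.5, 12.3 and 29.0 CPM. *Gstm2* was at 67.8, 38.5 and 41.1 CPM against 26.3, 7.72 and 17.7 CPM, with Selp_high above. *Gpx1*, glutathione peroxidase 1, was at 91.4, 65.5 and 83.6 CPM against 145, 176 and 336 CPM, with Selp_high below. In the JAK-STAT and PI3K-Akt list 27 of 38 genes were positive, with a median of 0.29 (0.10 without Selp_high replicate 2). Without overlap, 9 lay above (23.7%) and 5 below (13.2%), against 10.2% and 10.8% of all genes. *Jak3*, a cytokine receptor kinase, was the member called higher by DESeq2, at 187, 123 and 157 CPM in Selp_high and 63.5, 60.2 and 56.5 CPM in Selp_low. *Stat5a* was at 101, 94.1 and 126 CPM against 47.6, 49.3 and 73.4 CPM.

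Lymphoid genes had lower levels in Selp_high in pairs 1 and 2, but their medians were above 0 in pair 3 for B and T cell genes. Of 24 tested B lineage genes, 23 were negative, with a median of -3.05, yet 1 did not overlap (4.17%, against 10.8% of all genes below). DESeq2 called 8 lower (33.3%, against 1.45% of all genes), and the within-pair medians were -4.64, -2.92 and 1.22. *Cd79a*, a signaling chain of the B cell receptor, was at 49.6, 166 and 43.0 CPM in Selp_high and 2336, 3978 and 8.06 CPM in Selp_low. *Pax5*, the factor that commits cells to the B lineage, was at 0.0953, 1.93 and 0 CPM against 16.5, 29.9 and 0.484 CPM. *Fcer2a*, CD23 of mature follicular B cells, was at 11.8, 11.0 and 2.79 CPM against 328, 337 and 0.899 CPM. In each, Selp_low replicates 1 and 2 were far above the other 4 libraries and Selp_low replicate 3 was within or below the Selp_high range. *Ccr6*, a chemokine receptor of B cells that the filter removed from the edgeR test, had 1, 6 and 1 counts in Selp_high and 302, 140 and 3 in Selp_low, a ratio of 88.2 (95% exact interval 44.4 to 205, counting error only).

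MHC class II presentation followed the same libraries. All 15 genes were negative, with a median of -3.17, and 0 were without overlap. DESeq2 called 7 lower (46.7%, against 1.45% of all genes), and the pair 3 median was 0.24. *Cd74*, the invariant chain, was at 1359, 959 and 434 CPM in Selp_high and 12623, 23073 and 127 CPM in Selp_low. *H2-DMb2*, a peptide-loading chain, was at 30.3, 31.8 and 11.0 CPM against 757, 721 and 13.3 CPM. B cells and dendritic cells also carry these genes, the B lineage sums of Selp_low replicates 1 and 2 were 8620 and 10984 CPM, and their part in this difference was not tested. Of 27 T and NK cell genes, 25 were negative, with a median of -2.68 and a pair 3 median of 0.67. DESeq2 called 7 lower (25.9%, against 1.45% of all genes). *Cd3g*, a chain of the T cell receptor complex, was at 0.858, 5.07 and 1.51 CPM against 78.4, 212 and 0.761 CPM. *Klrb1c*, the NK receptor NK1.1, was at 93.8, 44.7 and 36.3 CPM in Selp_high and 24.1, 13.8 and 8.75 CPM in Selp_low, higher in Selp_high without overlap.

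Early lymphoid priming genes, which HSCs and multipotent progenitors can themselves express, had 23 of 26 negative and a median of -1.36, with within-pair medians of -2.09, -0.997 and -0.20. In 3 of 26 the groups did not overlap, with Selp_high below, a share near the 10.8% of all genes tested. Without Selp_low replicate 1 the median was -0.84, with 5 positive and 21 negative. *Cd52*, a surface glycoprotein of lymphocytes, was at 32.2, 54.4 and 153 CPM in Selp_high and 584, 1483 and 431 CPM in Selp_low. *Satb1*, a chromatin organizer of lymphoid priming, was at 5.12, 7.21 and 12.8 CPM against 51.0, 52.4 and 19.4 CPM. DESeq2 called both lower, of 5 lower calls on the list (19.2%, against 1.45% of all genes). Both were highest in Selp_low replicates 1 and 2. The T and NK cell list summed to 818, 1783 and 621 CPM in Selp_low against 196 to 217 CPM in Selp_high. Most of its members were not higher in Selp_low replicate 3 (pair 3 median 0.67). This RNA and the B lineage and neutrophil RNA given above differed among these libraries, and their part was not tested. *Tcf7*, a T lineage factor, was at 1.12, 4.80 and 2.41 CPM against 35.3, 26.1 and 1.80 CPM, and there Selp_low replicate 3 was within the Selp_high range.

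Further genes among the 10 largest non-overlapping differences with Selp_high below were not on a list. *Id3*, an inhibitor of E proteins, was at 11.3, 10.8 and 3.26 CPM in Selp_high and 64.6, 65.5 and 22.5 CPM in Selp_low. *Siglecg*, an inhibitory lectin of B cells, was at 9.51, 48.1 and 29.8 CPM against 349, 399 and 55.1 CPM. *Icosl*, a costimulatory ligand, was at 4.74, 11.0 and 15.9 CPM against 81.2, 126 and 16.1 CPM. Both were highest in Selp_low replicates 1 and 2. *Ciart*, a repressor of the circadian clock, was at 3.05, 2.04 and 3.53 CPM against 47.0, 28.7 and 4.81 CPM. *Lamb3*, a laminin chain, was at 2.55, 2.55 and 2.84 CPM against 35.9, 24.5 and 4.74 CPM. In these 5 genes Selp_low replicate 3 was the lowest of its group, and for *Icosl* it was nearly equal to the highest Selp_high library. *Clec2i*, a C-type lectin, was at 0.715, 1.65 and 5.94 CPM against 69.5, 80.2 and 6.19 CPM. *4930523C07Rik* was at 12.9, 22.3 and 34.9 CPM against 202, 153 and 55.7 CPM. *Lca5*, a ciliary protein, was at 2.00, 2.59 and 1.64 CPM against 6.78, 51.6 and 4.39 CPM, far highest in Selp_low replicate 2, and its log2 fold change ranged from -3.80 to -1.41 with a library left out. *Id3* was lower by DESeq2 (edgeR log2 fold change -2.59 (SE 0.62); DESeq2 adjusted p = 0.0106; 2.29e-16 to 0.882 over the alternatives).

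IG and TR genes, taken apart from the protein-coding genes, had large differences and a large spread among the Selp_low libraries. Of 151 tested IG variable genes, 143 were negative, with a median of -5.34, and DESeq2 called 25 lower (16.6%, against 1.45% of all genes). Libraries did not overlap in 14 of them, all with Selp_high below, against 10.8% of all genes tested. Without Selp_low replicate 2 the median was -2.76, with 39 positive and 112 negative, and the within-pair medians were -3.60, -5.23 and 0.00. In the Selp_low libraries these genes spanned a median factor of 159. Of 12 IG constant genes 10 were negative, with a median of -3.97 that became 0.52 without Selp_low replicate 2, the library with the most IG RNA. *Iglc2*, a lambda constant gene, was at 13.3, 66.1 and 14.9 CPM in Selp_high and 658, 5167 and 4.19 CPM in Selp_low. *Ighd*, the IgD constant gene of naive B cells, was at 28.1, 49.5 and 1.62 CPM against 1087, 1096 and 0.934 CPM. In Selp_low replicate 3 both lay below the Selp_high libraries. *Ighg2b*, an IgG constant gene, was at 2.05, 371 and 2.25 CPM against 47.2, 6054 and 43.6 CPM, with within-pair log2 ratios of -4.22, -4.03 and -4.00, and was lower by edgeR with the replicate block (log2 fold change -4.03 (SE 2.64) without the block, adjusted p = 0.0410 by edgeR with it; 1.82e-53 to 0.976 over the alternatives). Without Selp_low replicate 2 its log2 fold change turned to 1.49, since replicate 2 is then the highest library and stands in Selp_high alone. *Jchain*, the joining chain of secreted IgM and IgA, was at 142, 2973 and 438 CPM against 231, 92131 and 25.3 CPM, highest in replicate 2 of both fractions.

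*Ighv1-39* (ENSMUSG00000095130, chromosome 12 from 114878219 to 114878652 on the minus strand of mm39) was 1 of 2 genes called with the block whose libraries did not overlap with Selp_high below, the other being *2410012E07Rik*. It had 0, 2 and 0 counts in Selp_high and 230, 1649 and 1100 counts in Selp_low, which is 7.06, 102 and 38.1 CPM in Selp_low. The ratio of summed counts was 2360 (95% exact interval 653 to 19500, counting error only). Its level in Selp_low replicate 3 did not follow the sum of IG genes, which was 1353 CPM there and 26267 CPM in Selp_low replicate 1. The adjusted p was 0.0212 by edgeR with the block and 4.77e-13 by DESeq2, and 1.08e-27 to 0.882 over the alternatives. *2410012E07Rik* was at 0.358, 1.29 and 0.0531 CPM in Selp_high and 13.5, 34.0 and 1.97 CPM in Selp_low. The other 5 variable genes called with the block were at 0 to 0.0692 CPM in Selp_low replicate 3, as in *Igkv12-41*, which was at 0.0477, 2.73 and 0 CPM against 41.2, 1044 and 0.0692 CPM. IG variable genes are close copies of each other, and reads could be divided among them. With IG and TR genes left out of the fit, edgeR with the block called 1 gene and DESeq2 581. Of 25 tested TR genes, 24 were negative, with a median of -2.44 (-3.89 without Selp_high replicate 2). DESeq2 made 5 lower calls among them (20.0%, against 1.45% of all genes). *Trac*, the alpha constant gene, was at 1.98, 3.38 and 2.23 CPM in Selp_high and 69.7, 160.3 and 0.346 CPM in Selp_low.

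Plasma cell and neutrophil genes turned with single libraries. All 14 plasma cell genes were negative, with a median of -2.27, but without Selp_low replicate 2 the median was 0.20. *Derl3*, of the secretory pathway, was at 1.14, 19.7 and 3.74 CPM in Selp_high and 3.28, 320.3 and 1.63 CPM in Selp_low. Neutrophil genes had 18 of 25 negative and a median of -1.16, which was 2.58, with all 25 positive, without Selp_low replicate 3 and -3.24 without Selp_high replicate 3. With the replicate block it was 0.59, with 18 positive and 7 negative, and the within-pair medians were 1.11, 1.29 and -1.89. *S100a9*, an alarmin of neutrophil granules, was at 754, 188 and 6382 CPM against 927, 61.3 and 44128 CPM. *Camp*, a cathelicidin, was at 306, 76.9 and 1973 CPM against 403, 22.9 and 15887 CPM. Replicate 3 was the highest library for both genes in each fraction.

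Monocyte, macrophage and dendritic cell genes had 18 of 25 positive and a median of 1.29, which was 0.16 without Selp_high replicate 2. *Csf1r*, the receptor for macrophage colony-stimulating factor, was at 7.20, 34.4 and 15.4 CPM in Selp_high and 2.49, 4.51 and 3.91 CPM in Selp_low. *Cd68* was at 44.2, 59.9 and 25.4 CPM against 23.7, 18.8 and 10.3 CPM, both without overlap. Endothelial and stromal genes had 10 of 16 positive and a median of 0.38, which was 1.44 without Selp_low replicate 1 and 0.053, with 8 positive and 8 negative, without Selp_high replicate 2. *Cldn5*, claudin 5, was at 41.3, 17.5 and 10.8 CPM against 7.89, 1.67 and 3.11 CPM. *Col1a2*, a collagen chain, was at 10.7, 12.7 and 26.3 CPM against 3.68, 3.71 and 5.02 CPM. *Kdr*, the VEGF receptor, was at 13.7, 25.2 and 6.98 CPM against 5.34, 5.50 and 4.46 CPM. These 3 genes were the only list members without overlap, with Selp_high above (18.8%, against 10.2% of all genes), and 6 members were negative. *Cdh5*, VE-cadherin, looked up after its values were seen because endothelial cells also make P-selectin, was between 0.239 and 1.42 CPM in all 6 libraries, with an edgeR log2 fold change of 0.23 (SE 0.91). The whole list summed to 293, 155 and 89.9 in the Selp_high and 181, 64.2 and 59.5 in the Selp_low libraries, and the part of such cells was not tested.

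Some further genes that the study names for these libraries overlapped between the fractions. *Gfi1*, a repressor in HSCs and neutrophil precursors, was at 19.4, 14.3 and 27.4 CPM against 14.4, 14.4 and 55.9 CPM. Its log2 fold change of -0.47 (SE 0.60) by edgeR became 0.51 without Selp_low replicate 3. *Runx2*, a RUNX family factor, was at 9.22, 15.5 and 14.4 CPM against 14.5, 12.1 and 14.5 CPM. *Cd86*, a costimulatory ligand, was at 8.96, 8.13 and 3.29 CPM against 30.9, 25.3 and 2.70 CPM, highest in Selp_low replicates 1 and 2. *Cxcl5*, a chemokine that platelets also carry, was at 0.715, 18.7 and 5.84 CPM against 1.01, 1.85 and 2.66 CPM, and its Selp_high libraries spanned a factor of 26.2.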

How the data were processed

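Gene counts deposited by the authors for 9 bulk RNA-seq libraries were used, of which the 6 from paHSCs entered the comparison. Total RNA had been turned into cDNA with a SMARTer ultra-low input kit. Per the labels, processing named HISAT2 2.2.1, featureCounts 2.0.6 and mm39. The annotation release, strand setting and treatment of multiply mapped reads are not stated in the sources used here, so sense and antisense genes may share reads. The deposited counts are whole numbers that are not normalized. They were grouped by the sample labels, and 0 other columns of per-sample values were left unused.

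Genes were filtered by filterByExpr, scaled by TMM and tested with edgeR 4.0.16 by its quasi-likelihood test without a block (R 4.3.3). The SE given with an edgeR value was derived from that test, as the absolute log2 fold change divided by the square root of the F statistic. DESeq2 1.42.0, limma 3.58.1 and library-size scaling were alternatives. P-values measure the spread between these libraries. Libraries of equal label number deviated together from their group means, with correlations of 0.199, 0.320 and 0.325, each above the minimum of 0.1. For unequal numbers the correlations were -0.275 to 0.022. Deviations sum to 0 within a fraction, so positive values for equal numbers push those for unequal numbers below 0 on balance. That contrast is no separate support for pairs. Fits with the number as a block are also given. Within-pair ratios, and the fold ranges of lists, were taken after adding 0.5 CPM to each value. The scripts were tested on simulated data.

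Genes named were *Selp*, those the study names, calls of the fits with and without the block, the 10 protein-coding genes per direction with the largest fold change among those without overlap, with pairs moving one way and a mean of at least 10 CPM, genes of the sort, and at most 4 members per list, and of these a part is printed. Results of some genes are not reported here. Members and lists were chosen with earlier results of these data known. Figures and tables used Python 3.11.15, pandas 2.3.3, scipy 1.17.1 and matplotlib 3.10.9. Intervals and floors cover counting error only.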

Additional observations from a re-analysis of the deposited data

How the results depend on the processing

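The number of DEGs was the result that moved most. Against 0 by edgeR there were 193 without the filter on low counts, 9 with the replicate block, 0 to 50 with a library left out, and 1 with IG and TR genes left out and the block. DESeq2 gave 608, 2180 with the replicate block, 581 without IG and TR genes and 412, 2485 and 506 without Selp_high replicates 1, 2 and 3 and 434, 99 and 1268 without Selp_low replicates 1, 2 and 3. RLE size factors, library totals, the newer quasi-likelihood setting, limma with quality weights and a fit of all 9 libraries each gave 0. Genes without overlap numbered 3707 above and 555 below with CPM by library total, and 4362 and 5061 genes moved one way in all 3 pairs. The replicate block changed no other call by edgeR.

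With library totals as size factors the list median was 0.86 for megakaryocyte and erythroid transcription factors, 1.81 for HSC surface markers, 1.29 for HSC self-renewal transcription factors, 0.20 for CDK inhibitors and D cyclins, 0.86 for interferon-stimulated genes, 0.36 for NF-kB and inflammatory genes, 0.76 for JAK-STAT and PI3K-Akt, 0.57 for antioxidant and redox, 0.36 for p53 targets and DNA repair, -0.24 for respiratory complex I, -0.23 for respiratory complexes II to V and 0.16 for cytosolic ribosomal proteins. Leaving out each library gave medians of 0.39 to 0.79 for megakaryocyte and erythroid transcription factors, 0.029 to 1.23 for eicosanoid enzymes, -2.82 to 0.20 for plasma cell, -3.24 to 2.58 for neutrophil, 0.16 to 1.57 for monocyte, macrophage and dendritic cell, 0.053 to 1.44 for endothelial and stromal, -0.95 to 0.70 for S phase and mitosis, -0.46 to 0.22 for CDK inhibitors and D cyclins, 0.095 to 0.56 for interferon-stimulated genes, -0.18 to 0.17 for NF-kB and inflammatory genes, 0.10 to 0.41 for JAK-STAT and PI3K-Akt, -0.094 to 0.52 for antioxidant and redox, -0.33 to 0.31 for p53 targets and DNA repair, -0.47 to -0.23 for cytosolic ribosomal proteins, -5.43 to 0.52 for IG constant genes and -3.89 to -2.14 for TR genes, all biotypes. In each of these lists at least 1 value moved by more than the SD of the 3 within-pair medians, and 302 of 340 list medians under the alternatives moved by less. Library totals also raised the median of all genes, from -0.11 to 0.37.

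Of 115 named genes, 0 turned direction with RLE size factors, without the filter, by DESeq2 or in the fit of all 9 libraries. Leaving out a library gave log2 fold changes of -0.76 to 0.51 for *Gfi1*, -0.21 to 0.12 for *Runx2*, -9.88 to 1.49 for *Ighg2b*, -6.72 to 3.19 for *Jchain*, -5.46 to 1.75 for *Derl3*, -4.84 to 1.89 for *Camp*, -5.00 to 2.31 for *S100a9*, -0.53 to 1.16 for *Cd34* and -3.24 to 4.05 for *Ly6g*. With limma and quality weights the value was 0.39 for *Gfi1*, 0.015 for *Runx2*, 1.78 for *Camp*, 2.06 for *S100a9*, 0.19 for *Ube2c*, 0.064 for *Cd34* and 3.08 for *Ly6g*. With library totals it was 0.38 for *Runx2* and 0.10 for *Cd34*. With the replicate block it was 0.43 by edgeR and 0.42 by DESeq2 for *Cd34*, and 0.81 and 1.01 for *Ly6g*. The causes were not tested. Library totals, leaving out IG and TR genes and leaving out libraries in DESeq2 were chosen after seeing the data.

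The main limits are 3 libraries per fraction and no record here of which animals gave which library. RNA of lymphocytes and neutrophils also differed among the libraries of both fractions, and most among the Selp_low ones. A further limit is that fewer genes were detected in Selp_high replicates 1 and 3 than in the other libraries. A difference in a gene with few counts was not always detectable at this depth, and counts without molecular identifiers are not independent molecules. Surface protein was not measured in these files.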

Other observations

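Gene classes outside the lists also differed in level. Among the genes tested, 15020 protein-coding genes had a median log2 fold change of 0.00, 2656 lncRNA genes -0.43 and 1628 pseudogenes outside the IG and TR families -0.52. The within-pair medians were -0.52, -0.06 and -0.12 for lncRNA genes and -0.44, -0.19 and -0.35 for pseudogenes. Libraries without overlap lay below in Selp_high for 317 pseudogenes and above for 37, and for lncRNA genes these counts were 328 and 141. Over all genes tested 10.8% lay below and 10.2% above. With CPM by library total the counts were 89 below and 118 above for pseudogenes and 139 and 231 for lncRNA genes. Under that scaling 2.72% of all genes tested lay below and 18.2% above. Counts above thus exceeded those below in both classes, but by a smaller factor than over all genes. Genes detected by 1 or more counts numbered 21755 and 25192 in Selp_high replicates 1 and 3 and 33654 to 34143 in the other 4 libraries, and its part in these differences was not tested.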
